A study of Mus musculus with 14 samples.

Results

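Of the 57289 consensus peaks of the series, 22738 (39.69%) lay inside the body of a protein-coding gene. A peak was counted there if it overlapped an annotated gene span on an autosome and lay more than 1 kb from both ends of every protein-coding gene, so that promoters and transcript ends of coding genes were left out; 354 such peaks on the sex chromosomes were left out too. The rule used positions and no accessibility value, but it was chosen with earlier results of these data known. The peaks fell in 7685 of 20665 autosomal genes and were split by the length of the gene: 6575 lay in genes under 50 kb, 10137 in genes of 50 to 200 kb and 6026 in genes over 200 kb. Gene spans were those of RefSeq on GRCm38.p6, the assembly called mm10, and each peak was 700 bp wide. Exons, introns and UTRs were not told apart here.

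Open chromatin inside a gene often marks an enhancer, a stretch of DNA bound by transcription factors that raises transcription of its host gene or of another gene. Other intragenic sites are internal promoters, from which shorter transcripts or noncoding RNAs start. Long-term haematopoietic stem cells (LT-HSCs) sit at the top of the blood hierarchy, and many of their regulator genes, Runx1, Mecom and Meis1 among them, are long genes that hold enhancers in their introns.

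Bulk ATAC-seq, in which the transposase Tn5 cuts and tags accessible DNA, was made from LT-HSCs of C57BL/6 mice, sorted from bone marrow as Lin- Sca1+ cKit+ CD34- Flt3- cells. The groups were young cells from mice of 10 to 16 weeks (n = 4), aged cells from mice of more than 80 weeks (n = 5), and aged cells treated with 100 µM Rhosin (n = 5), a small-molecule inhibitor of the GTPase RhoA that the labels abbreviate to Ri. All cells, controls included, spent 16 h in culture (HBSS, 10% FBS, 37 °C, 3% oxygen, 5% carbon dioxide), so no library shows freshly isolated chromatin. Sequencing batch 1 held young 1, aged 1 and 2, and Ri 1 and 2. Batch 2 held young 2 and 3, aged 3 and 4, and Ri 3 and 4, and batch 3 held young 4, aged 5 and Ri 5. The replicates are biological per the series' design text, but the animals behind each are not stated, so p-values measure the spread between these libraries.

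Library totals ran from 765533 counts (young 3) to 3176246 (Ri 3). The median peak inside a gene body had a mean of 16.0 counts per library, against 42.21 at gene ends and 15.07 between genes, so single peaks carry large counting error. Of 8 stem-cell markers, 7 had a peak at a gene end (Slamf1 had none), and the mean over the list, with a marker without a peak taken as 0, was 22.6 to 36 CPM (counts scaled to the size of the library) in young, 23.6 to 32.0 in aged and 18.9 to 28.4 in Ri-treated libraries. Of 4 B-cell markers only Cd79a had one, with a list mean of 10.1 to 19.3 CPM in young, 5.27 to 11.4 in aged and 4.36 to 10.0 in Ri-treated libraries. The other lists were myeloid (5 of 5 markers with a peak, 4.94 to 10.1 CPM over all libraries), T and NK (2 of 5, 7.86 to 21.5), erythroid (2 of 4, 3.38 to 6.62), endothelial and stromal (2 of 4, 4.61 to 12.8) and non-blood (1 of 4, 0.172 to 2.81), beside a median of 30.3 CPM over all gene ends. In bulk libraries, more cells of a type and more signal per cell cannot be told apart.

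Of the peaks, 1368 (6.016%) held a RefSeq start. The sequences of 6 of them are shown because their accessibility changed between groups, 3 with age and 3 with Ri, and because sequence was at hand for the bases before a start. Each window is the 250 bases before the start on GRCm38.p6 (RefSeq), written 5' to 3' on the strand of the transcript, and it can run past the edge of the peak. Most of the Sun1 window lies before its peak, which begins at chr5:139215127. Capitals mark matches, on either strand, to GCGTG, the core bound by the aryl hydrocarbon receptor, to TGANTCA for AP-1, to CCGGAA for the ETS family, to AGATAA for the GATA family or to TGTGGT for the RUNX family, none of which overlapped another in these windows.
Tnrc6a (start of Gm39084, chr7:123098239-123098488, minus strand): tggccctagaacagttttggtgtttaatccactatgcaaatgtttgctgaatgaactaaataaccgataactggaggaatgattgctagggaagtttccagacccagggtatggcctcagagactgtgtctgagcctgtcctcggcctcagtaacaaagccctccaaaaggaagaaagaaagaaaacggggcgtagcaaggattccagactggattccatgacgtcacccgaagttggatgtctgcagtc
Aldh1a1 (chr19:20601718-20601967, plus strand): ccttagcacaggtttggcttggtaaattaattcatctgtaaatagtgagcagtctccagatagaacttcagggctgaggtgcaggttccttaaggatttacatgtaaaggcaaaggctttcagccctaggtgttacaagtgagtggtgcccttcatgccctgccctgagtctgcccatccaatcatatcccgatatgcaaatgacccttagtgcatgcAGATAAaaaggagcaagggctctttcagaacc
Dcakd (chr11:103017148-103017397, minus strand): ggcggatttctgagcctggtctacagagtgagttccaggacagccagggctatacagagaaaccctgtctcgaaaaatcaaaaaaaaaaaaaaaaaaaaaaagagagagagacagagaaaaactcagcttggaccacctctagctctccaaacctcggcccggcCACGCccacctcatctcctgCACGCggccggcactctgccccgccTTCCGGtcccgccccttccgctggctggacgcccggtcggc
Sun1 (chr5:139214908-139215157, plus strand): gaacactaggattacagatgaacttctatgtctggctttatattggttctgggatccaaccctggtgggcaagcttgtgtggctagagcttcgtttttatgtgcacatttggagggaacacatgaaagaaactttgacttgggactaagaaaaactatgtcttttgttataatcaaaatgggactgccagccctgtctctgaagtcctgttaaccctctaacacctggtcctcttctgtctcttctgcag
Esrrg (chr1:187997577-187997826, plus strand): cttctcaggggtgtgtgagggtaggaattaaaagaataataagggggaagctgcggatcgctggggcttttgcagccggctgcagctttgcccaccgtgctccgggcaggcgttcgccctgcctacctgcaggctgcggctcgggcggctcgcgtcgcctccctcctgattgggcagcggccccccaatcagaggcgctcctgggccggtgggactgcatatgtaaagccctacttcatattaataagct
Fetub (chr16:22919972-22920221, plus strand): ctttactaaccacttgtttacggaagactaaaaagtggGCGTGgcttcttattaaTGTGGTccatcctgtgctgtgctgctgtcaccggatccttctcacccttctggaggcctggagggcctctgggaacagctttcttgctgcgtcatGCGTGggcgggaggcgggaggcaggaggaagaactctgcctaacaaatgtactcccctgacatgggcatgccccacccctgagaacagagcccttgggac

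The Fetub window held a RUNX match and 2 matches to GCGTG, the Dcakd window an ETS match and 2 matches to GCGTG, and the Aldh1a1 window a GATA match. No letters of the 5 motifs were found in the other windows. GCGTG stood in 28.14% of all 32817 windows and in 39.18% of the 1368 windows inside gene bodies. For CCGGAA the shares were 12.02% and 17.98%, for TGTGGT 14.04% and 12.43%, for AGATAA 9.99% and 5.48%, and for TGANTCA 6.75% and 6.36%. The first share takes in RefSeq starts with or without a peak, the second only starts inside a peak. The 2 sets thus differ in more than their position. A match is a description of the letters and not a bound site.

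At the Tnrc6a site, which lies in a gene of the microRNA silencing machinery and holds the start of the long noncoding RNA gene Gm39084, the 4 young libraries gave 4.89, 6.87, 4.26 and 8.71 CPM. The 5 aged libraries gave 24.1, 19.9, 44.4, 23.3 and 20.5 CPM, and the 5 Ri-treated ones 24.0, 31.5, 60.0, 27.0 and 23.0 CPM. Every aged and every Ri-treated library lay above every young one. The site rose 4.01-fold with age (log2 2.00 ± 0.32 SE; edgeR adjusted p = 0.000165). With each library's share of counts at gene ends in the model, its adjusted p was 0.0554. The start inside Aldh1a1, a retinaldehyde dehydrogenase long used as a stem-cell marker, rose 2.7-fold (edgeR adjusted p = 0.000413; log2 1.43 ± 0.25 SE), from 7.55, 13.1, 11.4 and 13.5 CPM in young to 29.7, 30.5, 33.5, 26.0 and 29.8 CPM in aged libraries. These groups did not overlap, and the Ri-treated libraries (21.3 to 34.2 CPM) lay beside the aged ones. The start inside Dcakd, a gene of coenzyme A metabolism, fell by 0.97 ± 0.24 (SE) on the log2 scale with age (edgeR adjusted p = 0.0147), from 38.6, 61.9, 58.2 and 64.3 CPM to 13.6, 17.0, 24.1, 36.3 and 46.3 CPM. Aged 5 lay inside the young range, and the call was lost when young 1, young 2, aged 1 or aged 3 was left out (adjusted p 0.0518 to 0.0653) or the gene-end share was in the model (0.775).

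The starts inside Sun1, Esrrg and Fetub rose with Ri. Sun1 encodes a protein of the inner nuclear membrane that links the lamina to the cytoskeleton. Its peak (chr5:139215127-139215826) gave 10.4, 4.69, 10.5, 8.21 and 14.7 CPM in aged and 23.4, 12.8, 42.6, 18 and 19.4 CPM in Ri-treated libraries, beside 6.87 to 8.88 CPM in young ones. It rose 2.40-fold (edgeR adjusted p = 0.0366; log2 1.26 ± 0.29 SE). Here 4 of 5 Ri-treated libraries lay above every aged one. Esrrg, an orphan nuclear receptor gene, rose 2.08-fold at this site (edgeR adjusted p = 0.0384), from 8.21 to 12.9 CPM in aged to 12.5 to 31.9 CPM in Ri-treated libraries. Fetub, a protease inhibitor gene, rose 1.82-fold (edgeR adjusted p = 0.0499), from 14.1 to 22.2 CPM to 26.4 to 46.8 CPM without overlap. All 3 calls rested on most of the libraries together. Sun1 lost its call without any of aged 1 to 4 or Ri 1 to 3 (adjusted p 0.0502 to 0.362), Esrrg without any aged library or Ri 2, 3 or 5 (0.065 to 0.241), and Fetub without aged 1 to 4 or any Ri-treated library (0.0502 to 0.297).

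Peaks inside gene bodies were spread unevenly over genes. Of genes under 50 kb, 25.33% held at least 1 such peak, against 74.84% of genes of 50 to 200 kb and 86.67% of genes over 200 kb. Genes with a peak held a mean of 1.63, 3.58 and 7.36 peaks in the 3 classes. Per megabase of gene span the density was 27.39, 28.29 and 14.92 peaks, so the longest genes were the sparsest. The share of peaks that held a RefSeq start was 9.734% in the shortest genes, then 5.347% and 3.087%. Peaks with a start had a median of 38.57 counts per library, the others 15.5. Gse1, a cofactor of the CoREST repressor complex, held the most peaks (46), followed by Pde4d, a cAMP phosphodiesterase (43), Nav2 (35), and 5 genes with 33 each, Arhgap26 and Foxp1 among them. The bodies of these 5 named genes did not pass the test with age. The log2 changes of Gse1, Pde4d, Nav2, Arhgap26 and Foxp1 were 0.05, 0.11, 0.02, -0.07 and -0.14 (edgeR adjusted p = 0.772, 0.58, 0.939, 0.687 and 0.407). Those of Gse1 and Pde4d were -0.06 and -0.01 when the libraries were scaled on peaks inside gene bodies.

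The borders of the definition were not sharp in level. The 1081 peaks in a gene span just short of the 1 kb margin had a median of 22.9 counts per library, and the 854 just beyond it 21.9. Peaks in genes of 45 to 50 kb had 16.5 and those in genes of 50 to 55 kb 16.9, while genes of 180 to 200 kb had 14.7 and genes of 200 to 220 kb 15.1. A pair of peaks inside Myo3a stood apart, with 4907.4 and 6627.4 counts per library, beside 648.5 for the next highest. They took 1.02 to 3.84% of the counts inside gene bodies, and the shares of counts were also computed without them.

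The first comparison asked how peaks inside gene bodies differ between young and aged LT-HSCs. They took 28.8, 28.5, 26.9 and 26.8% of the counts of the 4 young libraries and 32.3, 32.3, 31.9, 30.2 and 27.1% of those of the 5 aged ones. The mean was 27.7% ± 1.05 (SD, n = 4) in young and 30.7% ± 2.21 (SD, n = 5) in aged libraries. Aged 1 to 4 lay above every young library, and aged 5, of batch 3, lay inside the young range. The difference adjusted for batch was 2.677 percentage points (3.453 in batch 1, 3.337 in batch 2 and 0.322 in batch 3; 2-sided exact permutation within batches, p = 0.0278, the smallest that 36 arrangements allow; Benjamini-Hochberg adjusted over 15 tests, 0.1042). Gene ends took 48.7% ± 1.94 (SD, n = 4) of young and 42.6% ± 4.40 (SD, n = 5) of aged counts. Of the counts outside gene ends, the share inside gene bodies was not higher in aged cells, with a difference of -0.461 points (-1.24, 0.117 and -0.58 in batches 1 to 3; exact permutation p = 0.3056). With a margin of 5 kb around gene ends in place of 1 kb, that difference was 0.649 points (exact permutation p = 0.139).

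Within gene bodies, the shortest genes took less of the counts of aged cells and the longest genes more, by values that did not pass after adjustment. With a smallest p of 0.0278 and 15 tests, no share could pass unless many tests reached that value. Not passing therefore says little about these shares. Genes under 50 kb took 33.8% ± 0.428 (SD, n = 4) in young and 32.3% ± 1.28 (SD, n = 5) in aged libraries, a difference of -1.427 points (-2.652, -1.317 and -0.01 in batches 1 to 3; exact permutation p = 0.0278; adjusted 0.1042). Genes over 200 kb took 23.4% ± 1.09 (SD, n = 4) and 24.9% ± 1.35 (SD, n = 5), a difference of 1.431 points (exact permutation p = 0.0556; adjusted 0.1389). The latter was 3.447 points in batch 1, 0.722 in batch 2 and 0.162 in batch 3, and 0.535 without young 1. Genes of 50 to 200 kb differed by -0.005 points (exact permutation p = 0.9722). Peaks holding a RefSeq start took 14.7% ± 1.07 (SD, n = 4) of the counts inside gene bodies in young and 12.1% ± 2.01 (SD, n = 5) in aged libraries, a difference of -2.408 points (-3.236, -2.746 and -0.627 in batches 1 to 3; exact permutation p = 0.0278; adjusted over 3 tests, 0.0833).

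**Figure D1:**
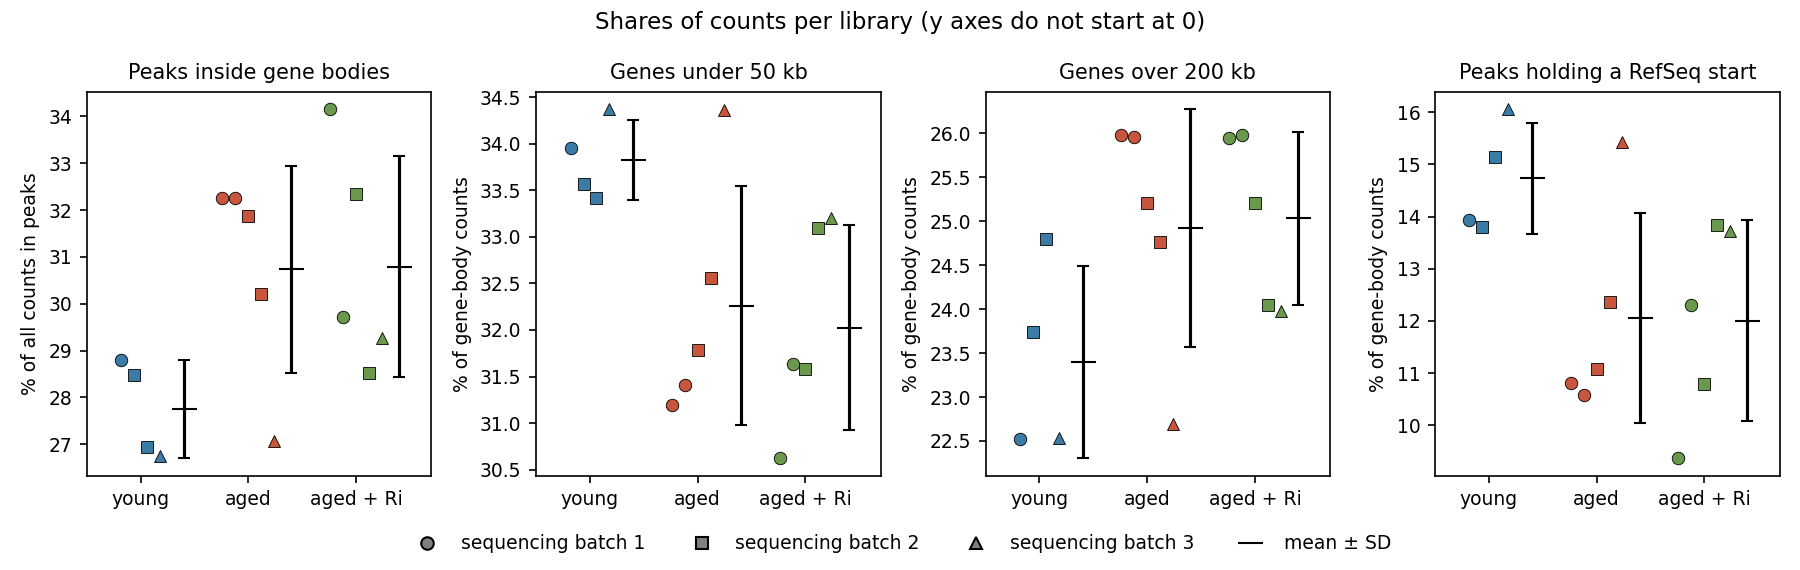
Each point is 1 library, its shape the sequencing batch, and the bars give the mean ± SD. The y axes show, from left to right, the percentage of all counts inside gene bodies, and of the gene-body counts in genes under 50 kb, in genes over 200 kb and in peaks holding a RefSeq start; aged 5, the triangle among the aged libraries, lies with the young libraries in each panel.

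Of 22268 peaks tested inside gene bodies, 1154 rose and 266 fell with age at an adjusted p below 0.05. That is 6.38% of them, against 5.72% of all 56235 peaks tested (4.45% higher and 1.26% lower), 2.64% of those at gene ends and 7.04% of those between genes. Their median log2 change was 0.09, beside -0.01 over all peaks and -0.22 at gene ends. Calls were most frequent in long genes: 289 rose and 87 fell in genes under 50 kb (5.80%), 468 and 117 in genes of 50 to 200 kb (5.89%), and 397 and 62 in genes over 200 kb (7.84%), with medians of 0.02, 0.11 and 0.16. The order held among peaks of 20 to 50 counts per library (9.34, 10.8 and 15.7% called) and of 50 or more (8.94, 10.9 and 18.2%). At 10 to 20 counts the first 2 classes were alike (3.30, 3.32 and 4.31%), and below 10 counts the order did not hold (1.85, 0.895 and 1.04%). It also ran with distance from the end of the gene, with 4.79% called at 1 to 5 kb, 5.93% at 5 to 20 kb, 6.82% at 20 to 100 kb and 9.0% beyond 100 kb. Along the gene, by contrast, the 3 equal parts of the span from start to end had like shares of 6.16, 6.80 and 6.08%. Peaks holding a RefSeq start were called in 3.89%, with 29 higher, 24 lower and a median of -0.18.

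The split between directions depended on the scaling and on single libraries. Of the calls, 81.3% were higher. With library scaling factors computed on peaks inside gene bodies alone, which moved the median of all peaks to -0.12, 794 rose and 422 fell (65.3% higher), and with loess offsets 992 rose and 413 fell (70.6%). After each library's gene-end share was added to the model, 60 rose and 0 fell. That share comes from the same counts and itself differed with age (mean 48.7% in young and 42.6% in aged libraries). A model that holds it therefore cannot tell a change with age from a change in that share. In the main fit, without that share, the count of calls was 342 without young 1 (318 higher, 24 lower) and 2722 without young 4. It was 734 higher and 193 lower without young 2, 693 and 115 without young 3, 728 and 76 without aged 1, 803 and 93 without aged 2, and 437 and 45 without aged 3.

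**Figure D2:**
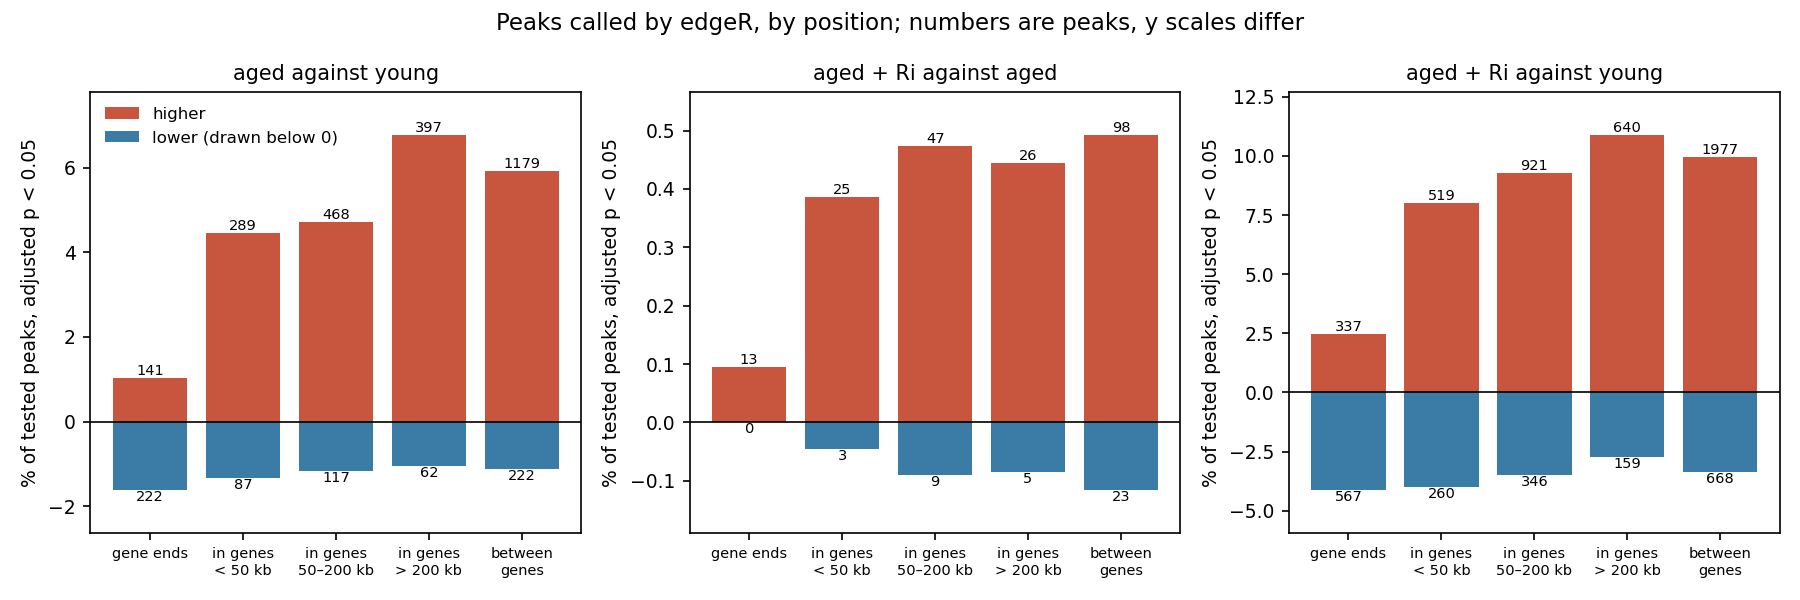
Bars give the percentage of tested peaks called by edgeR as higher (above 0) or lower (below 0) in each of the 3 comparisons, at gene ends, in the 3 gene-length classes and between genes; numbers are peaks, and the y scales differ. With age, the classes inside gene bodies show 289, 468 and 397 higher peaks against 87, 117 and 62 lower, while gene ends show 141 higher and 222 lower.

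The single peaks with the largest rises lay in genes of varied function. A peak in Rftn1, a gene of lipid rafts (chr17:50161216-50161915), rose 9.50-fold (edgeR adjusted p = 2.36e-06), from 2.66, 0.687, 1.42 and 3.39 CPM in young to 23.3, 21.1, 28.9, 17.8 and 21.4 CPM in aged libraries. The groups lay far apart, with the Ri-treated libraries at 15 to 33.6 CPM. A peak in Oxr1, an oxidation resistance gene, rose 7.71-fold (chr15:41825300-41825999; edgeR adjusted p = 7.08e-06), from 2.22 to 2.90 CPM in young to 6.68 to 35.3 CPM in aged libraries. Peaks in Prcp, a lysosomal carboxypeptidase gene, and Kcnb2, a voltage-gated potassium channel gene, rose 7.56-fold (edgeR adjusted p = 0.000149) and 6.73-fold (edgeR adjusted p = 7.08e-06). The lowest aged library lay above the highest young one at each of these 4 peaks. Prcp lost its call with the gene-end share in the model (0.0536) and the other 3 kept theirs.

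Among the peaks that fell, those in 2900026A02Rik and Sorcs2 kept their calls without any 1 library. The 2900026A02Rik peak (chr5:113164619-113165318) fell by 1.78 ± 0.32 (SE) on the log2 scale, or 3.44-fold (edgeR adjusted p = 0.000643), from 13.5 to 44.9 CPM in young to 4.14 to 12.3 CPM in aged libraries. The peak in Sorcs2, a sorting receptor gene, fell 3.04-fold (chr5:36373185-36373884; edgeR adjusted p = 0.00509), from 49.3, 30.9, 49.7 and 22.2 CPM to 4.81, 12.3, 6.77, 16.4 and 19.1 CPM. Neither pair of groups overlapped. Peaks in Cd82, a tetraspanin gene (3.45-fold), Capsl (3.17-fold), Islr2 (3.11-fold) and Slc43a2, an amino acid transporter gene (3.08-fold), also fell (edgeR adjusted p = 0.0252, 0.00863, 0.0207 and 0.00331). All were highest in young 1 and were lost without it (edgeR adjusted p = 0.145, 0.165, 0.182 and 0.134). Cd82 was lost also without young 3, aged 1, aged 2 or aged 5 (0.0507 to 0.0844), and Islr2 without young 3, aged 1 or aged 2 (0.057 to 0.0618). All 6 lost their calls with the gene-end share in the model (0.242 to 0.771).

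Summing all peaks inside a gene gave 1 value per gene body and less counting error. Of 7606 gene bodies tested, 594 rose and 147 fell with age (9.74% called, 7.81% higher and 1.93% lower). By gene length, 241 rose and 92 fell under 50 kb (8.35% called), 220 and 49 at 50 to 200 kb (9.61%), and 133 and 6 over 200 kb (17.0%), with median log2 changes of 0.02, 0.11 and 0.21. Longer genes hold more peaks and counts, with a median body sum of 27.2, 53.2 and 106 counts per library in the 3 classes. When scaled on peaks inside gene bodies, the calls were 381 higher and 251 lower (60.3% higher, against 80.2% before): 159 and 148, 145 and 88, and 77 and 15 in the 3 classes, with medians of -0.09, 0.00 and 0.10. Under that scaling, calls in genes under 50 kb were about evenly split. The count was 156 without young 1 and 1308 without young 4. It was 380 higher and 61 lower without young 3, 388 and 44 without aged 1, 430 and 60 without aged 2, and 269 and 31 without aged 3. After the gene-end share of each library was added to the model, 30 rose and 0 fell. By gene length 18, 8 and 4 rose, of 3990, 2800 and 816 bodies tested, too few to order the classes.

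The strongest rise was that of Ros1, which encodes an orphan receptor tyrosine kinase (chr10:52044863-52195398). Its body gave 7.11, 17.2, 11.4 and 13.1 CPM in young, 79.4, 72.6, 115, 71.2 and 32.5 CPM in aged and 46.9, 50.2, 74.9, 57.9 and 31.9 CPM in Ri-treated libraries. It rose 5.75-fold with age (log2 2.52 ± 0.25 SE; edgeR adjusted p = 3.76e-07), nearly all of it at 1 peak (chr10:52133351-52134050; 6.84-fold, edgeR adjusted p = 8.69e-07). Aged 5 was the lowest aged library, and still above every young one. Ezh1, which encodes a histone H3 lysine 27 methyltransferase known for maintaining stem cells, rose 4.49-fold (chr11:101191115-101226463; log2 2.17 ± 0.27 SE; edgeR adjusted p = 2.56e-05). Its body gave 12.4, 17.2, 12.8 and 11.6 CPM in young and 67.4, 58.6, 103, 73.2 and 29.4 CPM in aged libraries, without overlap. The rise sat in a peak 4739 bp from an end of the gene (chr11:101221025-101221724; 7.79-fold, edgeR adjusted p = 0.000117). With a margin of 5 kb in place of 1 kb, which left that peak out, the body of Ezh1 changed by 0.25 (edgeR adjusted p = 0.651).

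Other bodies with large rises were Pigg, an enzyme of GPI anchor synthesis (3.99-fold, edgeR adjusted p = 2.17e-05), Rhbdl2, a rhomboid protease (3.74-fold, 1.87e-05), Nrip3 (3.67-fold, 4.38e-06), Naaladl2 (3.66-fold, 2.56e-05), Cavin2, a coat protein of caveolae (3.65-fold, 2.56e-05), and Asb3 (3.54-fold, 0.000329). None of these 6, nor Ros1 and Ezh1, lost its call without any 1 library. Naaladl2 is a gene of 1346 kb, and its 3 peaks together gave 4.26 to 13.7 CPM in young and 31.6 to 51.9 CPM in aged libraries. At Rhbdl2 young 3 stood apart from the other young libraries, with 22.7 CPM against 9.67 to 10.3, and the aged libraries gave 28.1 to 65.0 CPM. With the gene-end share in the model, 7 of the 8 still passed (adjusted p 0.000154 to 0.0156) and Asb3 did not (0.0799). At Asb3 aged 5 gave 12 CPM, inside the young range of 5.77 to 15.1.

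Fewer bodies fell, by less, and most of those calls rested on young 1. Lamb3, which encodes a chain of the basement membrane protein laminin-332, fell by 1.07 ± 0.21 (SE) on the log2 scale, or 2.10-fold (chr1:193294353-193343878; edgeR adjusted p = 0.00211). It gave 87.5, 44.7, 76.7 and 37.2 CPM in young, 36.1, 32.8, 22.6, 31.5 and 26.7 CPM in aged and 35.4, 23.0, 19.0, 15.5 and 29.1 CPM in Ri-treated libraries. The young libraries varied most, and the lowest of them lay just above the highest aged one. Among the 8 lower bodies named by size, Lamb3 alone kept its call without any 1 library, and with the gene-end share in the model none of the 8 did (Lamb3 0.122). Sbk1 (2.17-fold), Selplg, the P-selectin ligand (2.09-fold), Gpat3, a glycerolipid enzyme (2.09-fold), Impdh1, an enzyme of guanine nucleotide synthesis (1.98-fold), Pax7, a muscle stem-cell factor (1.98-fold), Xkr7 (1.96-fold) and Cep164, a centriole protein (1.95-fold) were also lower, at edgeR adjusted p = 0.0252, 0.0327, 0.0317, 0.00792, 0.00939, 0.00409 and 0.016. Without young 1 the adjusted p of these 7 was 0.105, 0.3, 0.257, 0.124, 0.231, 0.0652 and 0.157. Without young 3 or single aged libraries among aged 1 to 3, it was 0.0594 to 0.0676 for Sbk1, 0.0756 to 0.0935 for Selplg, 0.0803 to 0.0942 for Gpat3 and 0.051 to 0.0571 for Cep164.

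**Figure D3:**
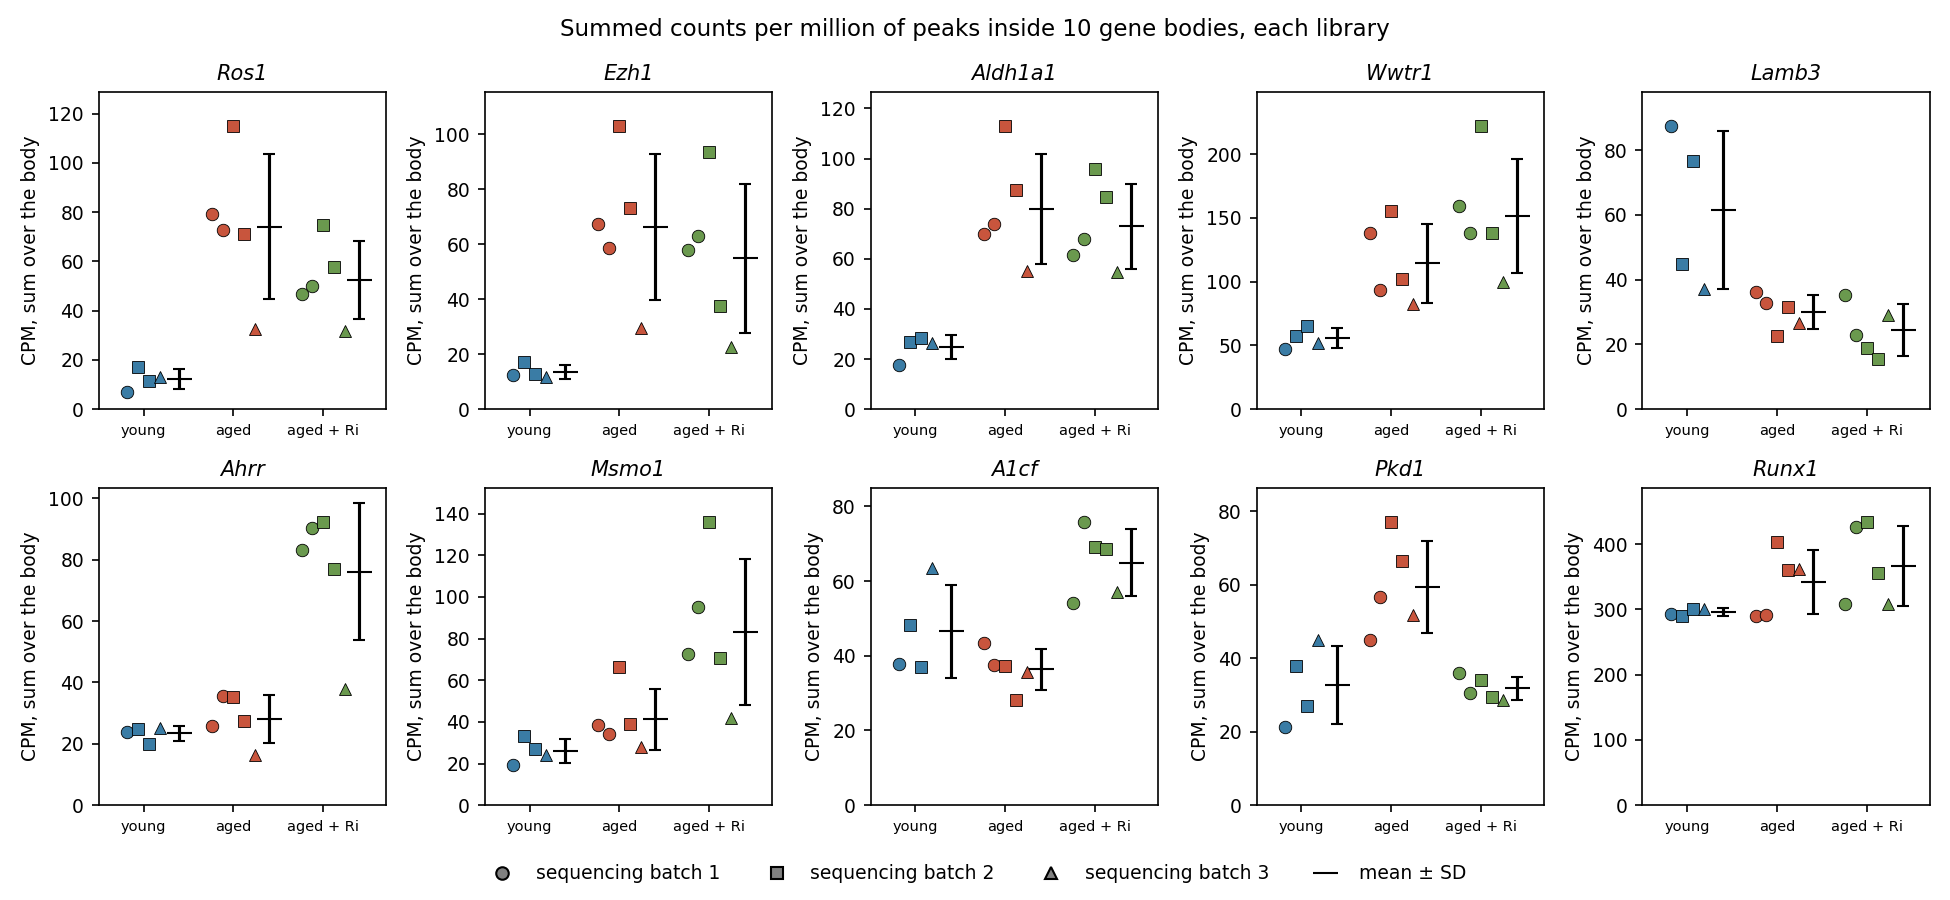
Each point is the summed CPM of the peaks inside 1 gene body in 1 library, its shape the sequencing batch, with the mean ± SD beside it; every y axis starts at 0. The aged libraries lie above all young ones for Ros1 (32.5 to 115 against 7.11 to 17.2 CPM), Ezh1, Aldh1a1 and Wwtr1, and the Ri-treated libraries lie above all aged ones for Ahrr (38.0 to 92.3 against 16.5 to 35.7 CPM).

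Genes of the stem-cell ageing signature, a list of genes known to rise or fall in old HSCs, were called in 1 direction. Of 29 bodies tested, 13 rose and 0 fell with age (44.8% higher, beside 7.81% of all bodies), with a median log2 change of 0.51 beside 0.08 over all gene bodies. Without young 1, 10 rose, and with the gene-end share in the model 4 rose, beside 0.394% of all bodies. Aldh1a1 (chr19:20492583-20643463) rose 3.23-fold (log2 1.69 ± 0.18 SE; edgeR adjusted p = 9.25e-07), from 17.8, 26.8, 28.4 and 26.6 CPM to 69.8, 73.8, 113, 87.6 and 55.2 CPM, with the Ri-treated libraries at 54.6 to 95.9 CPM. All aged libraries lay above all young ones. Slamf1, the HSC surface receptor CD150, rose 2.99-fold (edgeR adjusted p = 0.00109), although aged 5, with 10.7 CPM, lay inside the young range of 7.55 to 11.4 CPM. Gda, a guanine deaminase, rose 2.52-fold (edgeR adjusted p = 0.000113), Neo1, the netrin receptor neogenin, 2.15-fold (0.00149), Tm4sf1 2.05-fold (0.00369), Wwtr1, the transcriptional coactivator TAZ, 2.04-fold (0.000592) and Exoc6b, a subunit of the exocyst, 1.85-fold (0.00114). None of these 7 lost its call without any 1 library, but with the gene-end share in the model Aldh1a1 and Gda alone kept theirs (0.000164 and 0.0114), and Slamf1, Neo1, Tm4sf1, Wwtr1 and Exoc6b did not (0.139, 0.0799, 0.33, 0.123 and 0.23). The list was drawn up with results of these libraries known and holds genes that others found in old HSCs, so its direction is not independent.

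Of 33 HSC transcription factor bodies tested, 6 rose and 1 fell with age (18.2% higher and 3.03% lower, beside 7.81% and 1.93% of all bodies), with a median log2 change of 0.22. Without young 1, 2 rose, and with the gene-end share in the model 1 rose and 0 fell. Mllt3, a maintenance factor of HSCs, rose 1.72-fold (edgeR adjusted p = 0.00409). Its call held without any 1 library but not with the gene-end share in the model (0.243), and the aged libraries overlapped the young ones (69.9 to 158 against 42.6 to 83.2 CPM). Mecom, the zinc-finger factor EVI1, rose 1.58-fold (edgeR adjusted p = 0.00426; 0.0889 without young 1). Prdm16 and Bcl11a rose 1.38-fold and 1.37-fold (edgeR adjusted p = 0.0323 and 0.0384). Their calls ended when libraries were scaled on gene bodies (0.111 and 0.127) and without young 1, 2 or 3 or aged 1, 3 or 4 (0.0552 to 0.223 and 0.064 to 0.144), that of Bcl11a also without aged 2 (0.0628). Gfi1, a repressor that restrains HSC proliferation, fell 2.14-fold (edgeR adjusted p = 0.00555; 0.0813 without young 1). Runx1, Erg, Gata2 and Meis1 did not pass, with log2 changes of 0.22, 0.15, 0.26 and 0.31 (edgeR adjusted p = 0.274, 0.45, 0.552 and 0.153).

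Neuronal adhesion and synapse genes are among the longest in the genome. Of their 34 bodies tested, 16 rose (47.1%) and 0 fell, with a median of 0.55. Of all bodies 7.81% rose. Of 816 bodies tested in genes over 200 kb, 133 rose and 6 fell (17.0% called, median 0.21). The list was chosen with earlier results of these data known, so its share is not independent. Rbfox3, a neuronal splicing factor, rose 2.25-fold (edgeR adjusted p = 0.00109), from 40.0, 33.7, 38.3 and 72.6 CPM to 84.4 to 141 CPM, without overlap. Nlgn1, a postsynaptic adhesion protein, rose 1.91-fold (edgeR adjusted p = 0.00284), the guidance receptor Robo2 1.81-fold (0.00216), Rbfox1 1.74-fold (0.00337) and the presynaptic Nrxn3 1.71-fold (0.00446). Leaving out young 1 left 1 higher body. Nlgn1, Robo2, Rbfox1 and Nrxn3 then had edgeR adjusted p = 0.0707, 0.0529, 0.0716 and 0.0584. With the gene-end share in the model none rose. Common fragile site genes, also very long, rose in 4 of 24 bodies (16.7%) and fell in 0 (median 0.22), among them Naaladl2, Dpyd and the catenin Ctnna3. That is near what all genes over 200 kb gave (133 higher of 816, median 0.21). With the gene-end share in the model 1 of the list rose and 0 fell. Of the 4 calls, 1 was left without young 1 (edgeR adjusted p then 0.102 for Dpyd and 0.0858 for Ctnna3).

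In the pathway that Ri targets, the RhoA pathway and formins, 2 of 36 bodies (5.56%) rose with age and 0 fell, a share near that of all bodies (median 0.15): Ppp1r12b (1.96-fold, edgeR adjusted p = 0.00555; 0.0611 without young 1) and Ppp1r12a (1.51-fold, edgeR adjusted p = 0.0462; 0.0592 to 0.287 without any of young 1 to 3, aged 1 to 3 or aged 5). Both encode targeting subunits of myosin phosphatase, which the RhoA effector ROCK inhibits. Diaph1, a formin downstream of RhoA, changed by 0.30 (edgeR adjusted p = 0.125). Of 25 partners of SRF, YAP and TAZ, 4 (16.0%) rose and 0 fell (median 0.13, or 0.01 when scaled on gene bodies): Mob1b, a Hippo kinase adaptor (2.44-fold, 0.000681), the angiomotin Amotl2 (2.17-fold, 0.00167), Wwtr1, and the focal adhesion protein Zyx (1.95-fold, 0.00216). All 4 held without any 1 library, while with the gene-end share in the model Mob1b alone did (0.0183) and Amotl2, Wwtr1 and Zyx lost their calls (0.18, 0.123 and 0.129). Of 23 nuclear envelope and heterochromatin genes, Ezh1, the nesprin Syne2 (1.74-fold, 0.0128; 0.168 without young 1 and 0.0666 without aged 3) and the lamin Lmnb1 (1.52-fold, 0.0354; 0.0516 to 0.125 without any of young 1 to 4 or aged 1, 3 or 5) rose and 0 fell, with a median of 0.10. Ezh1 was called with the gene-end share in the model and Syne2 and Lmnb1 were not (0.652 and 0.261), nor were Ppp1r12b and Ppp1r12a (0.407 and 0.711).

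Lists of other blood and bone marrow cells held 5 to 13 tested bodies each, so their shares rest on few genes. Of 13 megakaryocyte and platelet genes, Mmrn1, a platelet granule protein (2.59-fold, edgeR adjusted p = 0.00262), and Rab27b, a granule secretion GTPase (1.85-fold, 0.00102), rose (15.4%) and 0 fell (median 0.26). Of 6 B and common lymphoid genes, Blnk and Flt3 fell, 1.91-fold and 1.41-fold (edgeR adjusted p = 0.0368 and 0.048), with a median of -0.33. Neither call held without young 1 (0.546 and 0.289), and both were also lost without young 2, aged 1, aged 2 or aged 3 (0.0574 to 0.155), Blnk without aged 5 (0.054) and Flt3 without aged 4 (0.0614). Flt3 was used to gate the cells. Single peaks went both ways: of 21 tested in this list, 3 were called higher and 1 lower, and Flt3 held 1 of each. The mean over the 4 B-cell markers, set by the Cd79a gene end alone, was 10.1 to 19.3 CPM in young and 5.27 to 11.4 CPM in aged libraries, ranges that overlap; its part in these values was not tested. Klrb1c, of 6 T and NK genes, rose 1.83-fold (0.0329; 0.0659 to 0.213 without any of young 1 to 3 or aged 1 to 3), and Kdr, of 10 endothelial and stromal genes, 2.52-fold (0.00426; 0.0658 without young 1). None of 8 myeloid and 5 erythroid bodies was called (medians 0.01 and 0.21). In these 6 lists 0 bodies were called with the gene-end share in the model.

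Some genes held several called peaks; whether more than their number of peaks gives was not tested. Of 1148 genes with a called peak, 206 had at least 2, and their peaks all rose in 158, all fell in 8 and went both ways in 40. Syn3, a synapsin gene that also hosts Timp3, had the most, with 6 of 17 tested peaks, all higher. Wwtr1 had 5 of 11, all higher. Exoc6b, Limch1, Lsamp, Mecom, Nav3, Pam, Rftn1 and Vps13d had 4 higher peaks each and none lower. Gse1, with 46 peaks, had 3 higher and 1 lower.

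In Mecom, 20 of the 22 tested peaks had a log2 change above 0. The median over all peaks in genes over 200 kb was itself above 0 (0.16), and peaks of 1 gene in the same libraries are not replicates. The Mecom peaks that passed lay 53.6, 179.3, 263.1 and 270.2 kb from the start of the span. The one at 53.6 kb (chr3:30455815-30456514) rose 2.49-fold (log2 1.32 ± 0.26 SE; edgeR adjusted p = 0.00173), from 7.55, 14.4, 11.4 and 9.19 CPM to 27.3, 19.3, 38.3, 34.2 and 14.7 CPM, and the one at 263.1 kb 3.51-fold (log2 1.81 ± 0.37 SE; 0.00235). Both held without any 1 library and neither pair of groups overlapped, but with the gene-end share in the model none of the 4 passed (0.105 to 0.531). The peaks at 270.2 kb (2.56-fold, 0.0206; 0.0547 to 0.0865 without young 2, aged 1 or aged 3) and 179.3 kb (1.96-fold, 0.032; 0.0624 to 0.21 without any of young 1 to 3 or aged 1 to 3) rested on more of the libraries.

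In Wwtr1 the peaks that rose lay at 20.1, 59.5, 63.4, 65.6 and 88.4 kb from the start of the span. The one at 20.1 kb (chr3:57555476-57556175) rose 3.56-fold (edgeR adjusted p = 0.00101), from 6.22, 7.56, 0 and 5.80 CPM to 24.1, 18.2, 31.6, 18.5 and 13.4 CPM. All aged libraries lay above all young ones there, and with the gene-end share in the model its adjusted p was 0.135. In Runx1, which has 13 peaks, only the peak 3.7 kb from the start passed (chr16:92822054-92822753; 1.98-fold, edgeR adjusted p = 0.0337). It gave 24.4, 80.4, 53.9 and 82.2 CPM in young and 103, 105, 170, 133 and 78.4 CPM in aged libraries. It was lost without any of young 1 to 3 or aged 1 to 3 (0.0562 to 0.245) when scaled on gene bodies (0.0625) and with the gene-end share in the model (0.684). The other 12 peaks of Runx1 had log2 changes of -0.56 to 0.40.

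**Figure D4:**
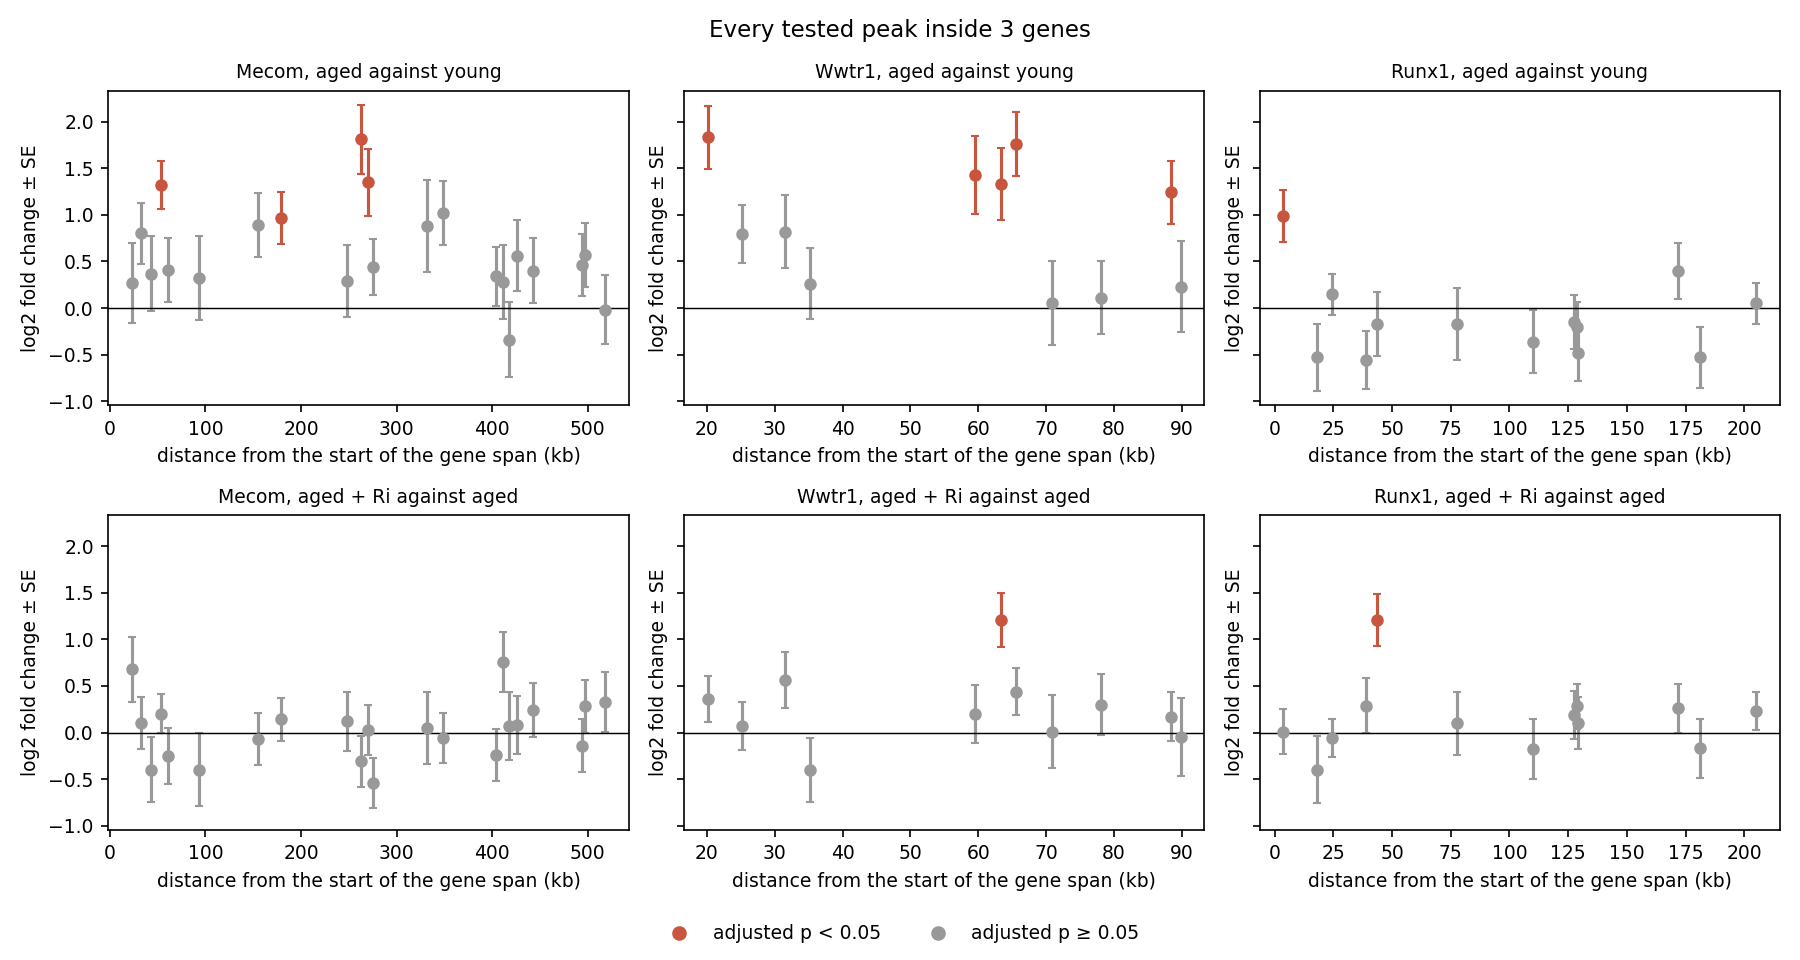
Each point is 1 tested peak inside Mecom, Wwtr1 or Runx1, placed by its distance from the start of the gene span (kb), with its log2 fold change ± SE for aged against young (top) and Ri-treated aged against aged (bottom); red marks an adjusted p below 0.05. With age 4 peaks pass in Mecom, 5 in Wwtr1 and 1 in Runx1, and with Ri 0, 1 and 1.

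To compare a body with the ends of the same gene, the log2 CPM of the gene end was subtracted from that of the body. This was done in 3294 genes with enough counts at both. No scaling of whole libraries can move this difference, but a library's share of counts at gene ends can. It was tested against 0, and the gene-end share was not put in this model. The body gained on the end with age in 77.2% of these genes, with a median difference of 0.38 (0.15 for the body and -0.26 for the end). The difference passed in 492 genes, 14.9% of those tested, with 454 higher (13.8%) and 38 lower (1.15%). From the shortest to the longest class of genes it passed in 15.8, 14.8 and 11.8%. The order by length seen for bodies did not hold here. Nrip3 had a difference of 2.7 ± 0.34 (SE; limma adjusted p = 0.0002). Its body rose from 10.7, 17.9, 15.6 and 8.71 CPM to 32.1, 36.3, 82.3, 56.1 and 31.2 CPM, while its end gave 16.4, 7.56, 25.6 and 11.1 CPM in young and 8.82, 6.44, 6.02, 6.16 and 7.12 CPM in aged libraries. The body was higher in every aged than in every young library, while the ranges of the end overlapped. Ctso, a cathepsin gene (2.81 ± 0.37 SE, 0.0002), Farsb, a phenylalanyl-tRNA synthetase gene (2.48 ± 0.35 SE, 0.000344) and Ezh1 (2.07 ± 0.31 SE, 0.000538) followed. At Ezh1 the end gave 19.7 ± 1.84 CPM (SD, n = 4) in young and 19.8 ± 3.49 CPM (SD, n = 5) in aged libraries, so the difference was that of the body.

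In the opposite direction stood Enpp2, which encodes the lysophospholipase autotaxin (-2.12 ± 0.31 SE; limma adjusted p = 0.000418). Its body gave 18.7, 22.7, 18.5 and 17.9 CPM in young and 9.62, 12.9, 12.8, 11.6 and 16.5 CPM in aged libraries, and its end 1.78, 8.25, 9.94 and 5.32 CPM in young and 13.6, 9.37, 27.4, 26.7 and 12.5 CPM in aged libraries. Dchs1, a protocadherin gene of planar polarity (-1.13, 0.00785), N4bp2l2 (-1.21, 0.0102; 0.0598 without young 1) and Nckap1, a subunit of the WAVE actin-regulating complex (-1.49, 0.0109; 0.0545 without young 1 and 0.053 without aged 3), were also lower in the body than at the end. At N4bp2l2 the end hardly differed (128 ± 15.5 and 123 ± 17.6 CPM, SD), while the body went from 21.8 to 42.6 CPM in young to 10.9 to 18.4 CPM in aged libraries. The count of genes that passed was 80 when young 1 was left out and 746 when young 4 was. It was 182 higher and 12 lower without young 3, 283 and 22 without aged 1, 262 and 15 without aged 2, and 116 and 3 without aged 3.

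**Figure D5:**
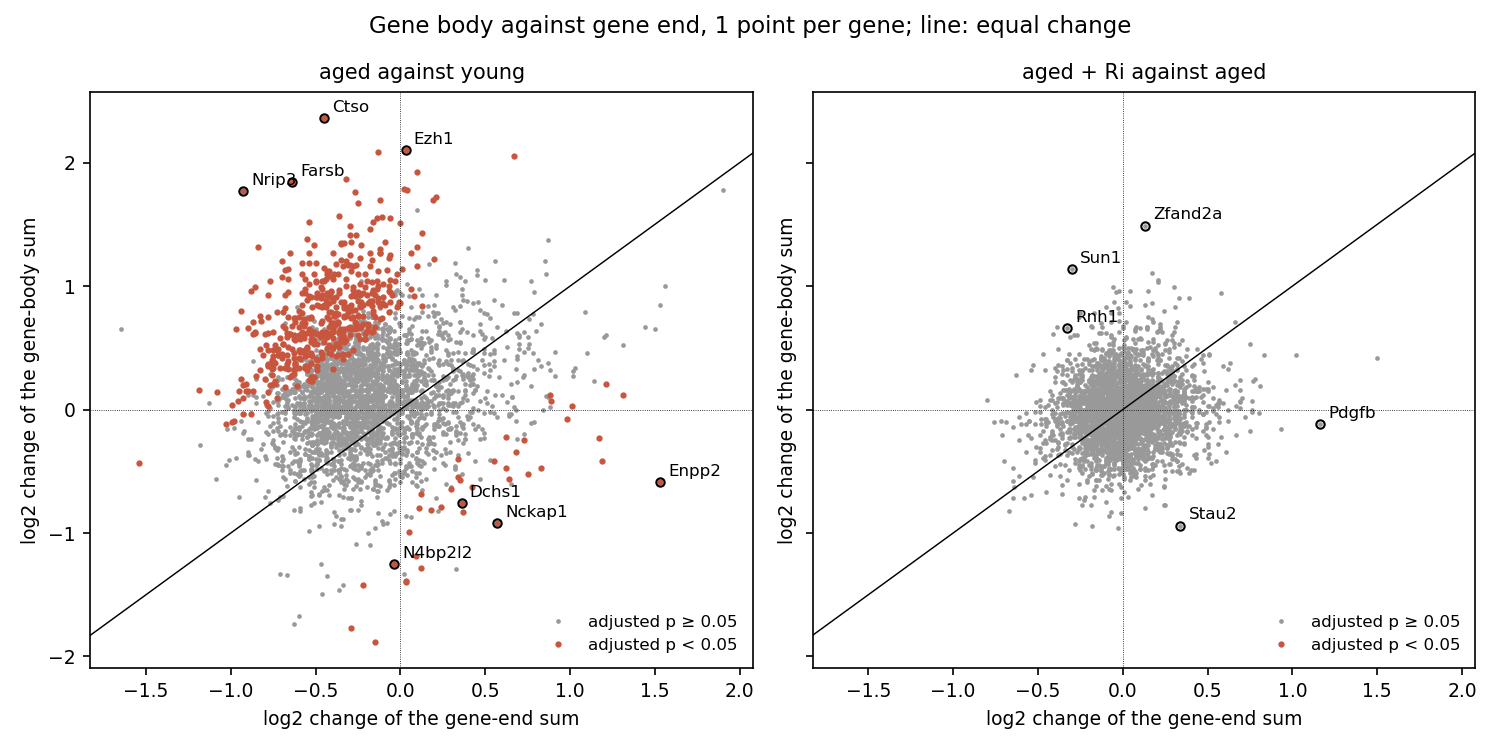
Each point is 1 of 3294 genes, with the log2 change of its gene-end sum on the x axis and of its gene-body sum on the y axis, for aged against young (left) and Ri-treated aged against aged (right); the line marks equal change and red an adjusted p below 0.05. With age 77.2% of genes lie above the line and 492 pass, while with Ri 48.6% lie above it and 0 pass.

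The second comparison asked what 16 h of RhoA inhibition changes inside the gene bodies of aged cells. The shares of counts hardly moved: gene bodies took 30.7% ± 2.21 (SD, n = 5) of aged and 30.8% ± 2.36 (SD, n = 5) of Ri-treated counts, a difference of 0.056 points (exact permutation within batches, p = 0.9444), and the other 4 shares had exact permutation p of at least 0.5833. Of the 22268 peaks tested, 98 rose and 17 fell, 0.516% of them, beside 0.446% of all peaks (0.375% higher and 0.0711% lower), with 28, 56 and 31 calls in the 3 gene-length classes. Of gene bodies, 5 rose and 1 fell (0.0789% called, 0.0657% higher and 0.0131% lower). Aged and Ri-treated libraries of the same number deviated together (r = 0.137 to 0.645), but they also share a batch, and with batch removed r was -0.227 to 0.472; shared animals are not stated. With the number as a block, fitted on these 2 groups alone, 664 peaks rose and 333 fell (66.6% higher). Of bodies, 201 then rose and 114 fell (4.32% called, 2.76% higher and 1.56% lower). The same 2 groups fitted with batch in place of the block gave 270 higher and 91 lower peaks (74.8% higher) and 61 and 39 bodies. In the fit of all 3 groups 85.2% of the called peaks were higher. With the gene-end share in the model 32 bodies rose and 16 fell (0.631% called, 0.421% higher and 0.210% lower). Leaving out Ri 5 gave 220 peaks and 66 bodies, without Ri 3 the counts were 5 peaks and 1 body, and the higher peaks were 36, 22, 15 and 9 without aged 1 to 4 and 21 without Ri 2.

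Ahrr, the repressor of the aryl hydrocarbon receptor and itself a target gene of that receptor, had the firmest change (chr13:74211118-74292331). Its body gave 25.7, 35.7, 35.3, 27.4 and 16.5 CPM in aged and 83.3, 90.2, 92.3, 77.0 and 38.0 CPM in Ri-treated libraries, beside 24.0, 24.7, 19.9 and 25.2 CPM in young ones. Every Ri-treated library lay above every aged and young one, and Ri 5 was the lowest, as aged 5 was among the aged. The body rose 2.64-fold with Ri (log2 1.40 ± 0.18 SE; edgeR adjusted p = 7.28e-05; 3.29e-09 with the replicate block), and 0.14 was its change with age (0.718). Most of the rise sat in 1 of its peaks (chr13:74259964-74260663; 2.89-fold, edgeR adjusted p = 0.000741). Of the 6 called bodies, Ahrr alone held without any 1 library.

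Zfand2a, a gene of the arsenite and heat shock response, rose 3.03-fold (edgeR adjusted p = 0.0122), from 9.62, 6.44, 9.02, 6.16 and 10.2 CPM to 13.5, 30.6, 41.3, 28.0 and 18.6 CPM without overlap. Gfod2 rose 2.00-fold (edgeR adjusted p = 0.0122), Msmo1, an enzyme of cholesterol synthesis, 1.97-fold (0.0386) and A1cf, an RNA-binding cofactor of APOBEC1, 1.79-fold (0.0386). A1cf gave 43.3, 37.5, 37.2, 28.1 and 35.6 CPM in aged and 54.1, 75.8, 69.1, 68.7 and 57.0 CPM in Ri-treated libraries, again without overlap. Pkd1, the gene of polycystin-1, fell 1.87-fold (log2 -0.90 ± 0.18 SE; edgeR adjusted p = 0.0373), from 44.9, 56.8, 77.1, 66.4 and 51.7 CPM to 35.9, 30.6, 34.2, 29.5 and 28.7 CPM. Pkd1 had risen 1.83-fold with age (0.00523), and its Ri-treated and young libraries differed by -0.03 (0.941); the 2 contrasts share the aged libraries. With the replicate block the adjusted p was 2.48e-05 for Zfand2a, 2.66e-05 for Gfod2, 1.59e-05 for Msmo1, 0.000133 for A1cf and 8.57e-05 for Pkd1. Without the block each of the 5 lost its call without 4 to 6 single libraries, among them aged 4, Ri 2 and Ri 3 in every case (adjusted p 0.0526 to 0.373 over all such losses).

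Among single peaks, those in Baiap2, Sptb, Stn1 and Medag held without any 1 library. Baiap2 encodes IRSp53, an adaptor that links small GTPases to the actin cytoskeleton. Its peak at chr11:119975687-119976386 rose 4.14-fold (log2 2.05 ± 0.33 SE; edgeR adjusted p = 0.0027), from 8.02, 6.44, 4.51, 1.37 and 1.34 CPM to 16.1, 19.6, 29.4, 15.5 and 7.28 CPM, and only Ri 5 lay inside the aged range. The sum over its 6 peaks changed by 0.06 (0.93). A peak in Sptb, the erythroid spectrin gene (chr12:76593731-76594430), rose 3.53-fold (edgeR adjusted p = 0.00397), and a peak in Stn1, a subunit of the telomere-capping CST complex (chr19:47508460-47509159), 3.51-fold (0.000939), from 7.62 to 15.7 CPM to 21.4 to 71.3 CPM. The peak in Medag (chr5:149428292-149428991) fell 2.61-fold (log2 -1.39 ± 0.24 SE; edgeR adjusted p = 0.00469), from 36.9, 35.7, 38.3, 56.8 and 29.4 CPM to 12.5, 13.6, 17.1, 11.1 and 19.4 CPM. All Ri-treated libraries lay above the aged ones at Stn1 and below them at Medag.

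Peaks in Xpnpep1 (3.51-fold, edgeR adjusted p = 0.00927), Zdhhc18 (3.47-fold, 0.00665) and Susd1 (3.32-fold, 0.00315) also rose. They were lost without Ri 3 (0.13, 0.0734 and 0.0566), the first without aged 3 or aged 4 too (0.0764 and 0.0736), and Zdhhc18 without aged 3 (0.0698). Peaks in Ctnnd2, a delta-catenin gene (2.30-fold, 0.0324), Pkd1 (2.22-fold, 0.0211), Pik3ip1, an inhibitor of PI3 kinase (2.08-fold, 0.0241), Sugp2 (2.02-fold, 0.0423) and Slit1, a guidance ligand (1.99-fold, 0.0489), fell, and each was lost without 5 to 8 of the 10 libraries (0.0559 to 0.273). All 5 had risen with age, by 2.41, 2.06, 2.57, 2.08 and 3.56 times, in a contrast that shares the aged libraries. Cflar, which encodes the caspase-8 inhibitor c-FLIP, was the only gene with more than 1 called peak, at 2.60-fold and 2.02-fold (edgeR adjusted p = 0.0344 and 0.0333; 0.0561 to 0.317 without any of aged 1 to 4, Ri 2 or Ri 3, the first also without Ri 4). Single peaks in Runx1 (chr16:92782274-92782973; 2.31-fold, 0.0429) and Wwtr1 (chr3:57512151-57512850; 2.31-fold, 0.0499) rose too. The former was lost without any library but Ri 4 (0.0509 to 0.354) and the latter without any but aged 1 and Ri 5 (0.055 to 0.35).

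In the main fit, of all 3 groups with neither the block nor the gene-end share, no body of the 13 gene lists passed with Ri by edgeR's quasi-likelihood test. There, 872 of all 7606 bodies had an unadjusted p below 0.05. Leaving out aged 5 called 2 nuclear envelope bodies higher, and scaling on gene bodies called 1. With the gene-end share in the model Sun1, Tm4sf1, Lmna and Sptb rose and Tal1 fell (edgeR adjusted p = 0.0386, 0.0329, 0.044, 0.0329 and 0.0338). With the replicate block, which called 4.32% of all bodies, 4 of the stem-cell ageing list rose (Jam2, Tm4sf1, Neo1 and Wwtr1) and 0 fell, Sun1 and the lamin Lmna rose among nuclear envelope genes, Actn1 and Wwtr1 among partners of SRF, YAP and TAZ, and Arhgef12, a RhoA activator, in the RhoA pathway. Zfpm1 and Tal1 fell among HSC transcription factors and Dcc among neuronal genes, Wwox and Lrp1b of the fragile site genes were called in opposite directions, and Sptb rose among erythroid genes. Counts of 1 or 2 in a list are near what that share gives. With the block, Sun1 changed by 1.26 ± 0.23 (SE; edgeR adjusted p = 0.000481), Jam2 by 0.74 ± 0.12 (0.000158) and Tm4sf1 by 0.73 ± 0.14 (0.00132). Outside the lists, Dock6, a guanine exchange factor for Rac and Cdc42 (1.02, 3.94e-05), Lmcd1, a LIM protein (1.09, 2.48e-05), Klrg2 (1.09, 0.000127) and Llgl1, a polarity protein (0.92, 0.000243), were called with the block. They were called also with the gene-end share in the model (0.0218, 0.0345, 0.0329 and 0.0226) but did not pass in the main fit. These 4 were picked after their values were seen.

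No gene passed the test of body less end with Ri. The body gained more in 48.6% of the 3294 genes, the median difference was -0.01, and 0 genes passed in limma (0.00%), with or without the block, while 221 had an unadjusted p below 0.05. The lowest adjusted p were those of Pdgfb (-1.28, 0.326), whose end rather than body differed, at 6.42 to 13.4 CPM in aged and 17.0 to 38.7 CPM in Ri-treated libraries, and of Sun1 (1.44), Zfand2a (1.35) and Stau2 (-1.29), each at 0.407.

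Set against young cells, the Ri-treated aged cells had 2080 higher and 765 lower peaks inside gene bodies (12.8% called, against 11.5% of all peaks, 7.90% higher and 3.56% lower) and 910 higher and 366 lower bodies (16.8% called, with 4.81% of the bodies tested called lower). This comparison shares its libraries with the other 2, and the replicate numbers do not pair young with Ri-treated libraries. With scaling on gene bodies 1634 peaks rose and 978 fell (62.6% higher, against 73.1%). In genes over 200 kb 169 bodies rose and 21 fell (23.3% called). Gene bodies took 2.793 percentage points more of the counts (exact permutation p = 0.0833; adjusted 0.1786), and genes under 50 kb differed by -1.671 points of the gene-body counts (exact permutation p = 0.0278; adjusted 0.1042). The body gained on the gene end in 73.9% of genes (median 0.36), and 709 passed in limma (21.5%), 638 higher (19.4%) and 71 lower (2.16%). The counts were 1273 peaks, 628 bodies and, in the body-less-end test, 228 genes without Ri 3. Without young 1 they were 1139 higher and 427 lower peaks, 472 and 157 bodies, and 216 and 32 genes. The peaks were 1351 higher and 435 lower without young 2 and 1433 and 443 without young 3, and the genes were 330 and 35 without young 3.

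The bodies highest above young were Lmcd1 (5.21-fold, edgeR adjusted p = 0.000104), Rhbdl2 (4.68-fold, 7.88e-07), Nrip3 (4.26-fold, 4.59e-07), Ros1 (4.11-fold, 5.93e-06) and Ints3, a subunit of the Integrator complex (4.02-fold, 4.59e-07). Lmcd1 gave 4.44, 12.4, 5.68 and 8.71 CPM in young, 24.1, 26.9, 33.8, 19.2 and 6.68 CPM in aged and 38.5, 47.7, 82.3, 39.9 and 19.8 CPM in Ri-treated libraries. Only its aged library 5 lay among the young ones. Cd109, a glycoprotein that binds TGF-beta, was higher 3.40-fold (4.34e-05), Tm4sf1 3.39-fold (5.67e-06), Neo1 2.99-fold (1.4e-05) and Wwtr1 2.7-fold (6.53e-06), against 2.31, 2.05, 2.15 and 2.04 in untreated aged cells. The step between aged and Ri-treated cells was 0.56, 0.72, 0.47 and 0.40 in log2 for these 4 and did not pass (edgeR adjusted p = 0.285, 0.0643, 0.266 and 0.3), though with the block Tm4sf1, Neo1 and Wwtr1 did. Of the stem-cell ageing list, 16 of 29 bodies were higher than in young and 1 lower (median 0.57), beside 16.8% of all bodies called. Adding the gene-end share to the model left 100 of all bodies higher and 6 lower (1.39% called, 1.31% higher and 0.0789% lower).

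Rock2, the RhoA effector kinase, was 2.22-fold higher than in young (edgeR adjusted p = 0.00224), with 10.2 to 24.1 CPM in young, 35.3, 19.3, 27.8, 18.5 and 17.8 CPM in aged and 38.0, 37.5, 47.8, 27.0 and 19.8 CPM in Ri-treated libraries. Mrtfa, the SRF coactivator that senses actin, was lower (log2 -0.60, 0.00268), at 110 to 132 CPM in young, 82.4 to 112 in aged and 70.8 to 91.9 in Ri-treated libraries. A single peak in Nprl3, a gene whose introns hold the alpha-globin enhancers, was 7.85-fold above young (chr11:32250835-32251534; edgeR adjusted p = 3.08e-06). The Nprl3 peak gave 6.66, 5.50, 4.26 and 2.90 CPM in young, 16.8, 11.7, 27.1, 11.6 and 10.2 CPM in aged and 24.0, 33.2, 95.5, 41.4 and 21.4 CPM in Ri-treated libraries, and it passed in both other comparisons too (edgeR adjusted p = 0.00966 with age and 0.0141 with Ri). Among lower bodies were Lamb3 (2.55-fold, 0.000104), Sipa1, a GTPase-activating protein for Rap (2.36-fold, 0.00224), Cds1, an enzyme of phospholipid synthesis (2.35-fold, 0.000469), and Il21r, the interleukin-21 receptor (1.99-fold, 0.000529). Lamb3 kept its call with the gene-end share in the model (0.021), while Rock2 (0.162), Sipa1 (0.428), Cds1 (0.088) and Il21r (0.0671) lost theirs. The B and common lymphoid bodies Flt3, Pax5 and Blnk were lower (edgeR adjusted p = 0.00621, 0.00813 and 0.0181). Pax5 was lost without young 1 (0.178), and none of the 3 was called with the gene-end share in the model (Pax5 0.527). The B-cell marker mean was 4.36 to 10.0 CPM in Ri-treated and 10.1 to 19.3 CPM in young libraries, and its part was not tested.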

How the data were processed

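Bulk ATAC-seq counts per consensus peak were analysed for 14 libraries. The authors deposited raw counts, made with featureCounts on mm10, with SAMtools 1.14 and R 4.2.0 also named per the submitters' processing notes; the aligner and peak caller are not given in the sources used here. The deposited peak list is 1 consensus set used for all libraries; how it was built is not given in the sources used here. Totals of 765533 to 3176246 counts set the precision.

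Peaks were placed on RefSeq gene spans (GRCm38.p6). The members and lists were chosen with earlier results of these data known. Peaks and gene-body sums were tested with edgeR 4.0.16 in R 4.3.3 (quasi-likelihood, filterByExpr, TMM over all peaks kept, group plus sequencing batch, Benjamini-Hochberg adjusted p below 0.05 over all peaks or all bodies). Body less end used log2 CPM (prior count 2) in limma 3.58.1 for genes with a mean count of at least 20 at both. Shares of counts were tested by exact permutation within batches (36 or 72 arrangements; smallest p 0.0278). DESeq2 1.42.0, other scalings and filters, a gene-end share covariate, a replicate block, margins of 5 kb and leaving out each library were alternatives. The fits were tested on simulated data. Figures used Python 3.11.15, pandas 2.3.3, NumPy 2.4.6 and matplotlib 3.10.9.

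Named were the 8 called bodies with the largest change each way (mean count of at least 50, same direction in each of 3 batches), the 6 such peaks (mean count of at least 20, 1 per gene), 4 genes each way for body less end, and up to 4 called genes per list. Peaks along Mecom, Wwtr1 and Runx1, peaks holding a start, and further members of lists were chosen after their values were seen. Some results are not reported here. Same-numbered aged and Ri-treated libraries deviated together (r = 0.365, 0.137, 0.645, 0.276 and 0.544 over 25903 peaks), so the number was used as a block. They also share a batch: with batch removed r was 0.087, -0.055, 0.472, 0.218 and -0.227. Shared animals are not stated, and young libraries were not paired this way.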

Additional observations from a re-analysis of the deposited data

Results flagged for a closer look

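In groups of 4 or 5 libraries, 26 of 366 groups (7.1%) had a highest or lowest library that stood apart from the rest, where chance gives about 1 in 20. Among young libraries the highest stood apart at the bodies of Rhbdl2 (22.7 CPM), Pax7 (111 CPM), Dpyd (12.8 CPM), Rbfox3 (72.6 CPM), Mmrn1 (14.4 CPM) and Pax5 (86.2 CPM) and at a peak in Prcp (7.1 CPM). The lowest young library stood apart at the body of Aldh1a1 (17.8 CPM) and at a peak in Cflar (chr1:58726938-58727637, 0 CPM). Among aged libraries the highest stood apart at the body of Msmo1 (66.2 CPM) and at peaks in Xpnpep1 (9.96 CPM) and Tnrc6a (44.4 CPM), and the lowest at peaks in Islr2 (4.79 CPM) and Slit1 (12.5 CPM).

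Among Ri-treated libraries the highest stood apart at the bodies of Cavin2 (52 CPM), Syne2 (55.7 CPM) and Tm4sf1 (78.8 CPM) and at peaks in Zdhhc18 (41 CPM), Ctnnd2 (11.3 CPM), Nprl3 (95.5 CPM), Mecom (chr3:30455815-30456514, 46.5 CPM), Tnrc6a (60.0 CPM) and Runx1 (chr16:92782274-92782973, 23.9 CPM). The lowest stood apart at the bodies of Baiap2 (75 CPM) and Ahrr (38 CPM) and at the peak in Ahrr (28.7 CPM).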

How the results depend on the processing

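The counts of calls moved most. For aged against young, peaks called were 60 with the gene-end share in the model, 820 with no batch term, 2597 without sequencing batch 3, and 342 to 2722 leaving out each library. Bodies were 30, 476 and 1303 under the same settings and 156 to 1308 leaving out each library. For Ri-treated against untreated aged cells, peaks were 21 with no batch term, 361 with only these groups fitted, 997 with the replicate block, 228 without batch 3 and 5 to 220 leaving out each library. Bodies were 20 (scaling on gene bodies), 33 (loess), 48 (gene-end share), 2 (no batch term), 100 (only these groups), 315 (replicate block), 22 (peaks given to the shortest gene), 20 (margin of 5 kb), 10 (without start-holding peaks), 78 (without batch 3), 42 (DESeq2) and 1 to 66 leaving out each library. For Ri-treated against young, peaks were 241 (gene-end share), 1562 (replicate block) and 1273 to 3839, and bodies 106 (gene-end share) and 628 to 1692. Body less end gave 956 with the replicate block and 80 to 746 for aged against young, 0 for Ri-treated against aged, and 228 to 892 for Ri-treated against young. The cause was not tested.

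Among shares of counts, that outside gene ends reversed with a margin of 5 kb (0.649, 0.097 and 0.747 points for the 3 comparisons). That of genes of 50 to 200 kb with age was 0.039 with arrangements across batches, 0.006 with the replicate block and 0.038 without the Myo3a peaks, and with Ri against young -0.374 with a margin of 5 kb. Leaving out each library gave, with age, 2.253 to 3.384 points for gene bodies, -0.596 to -0.116 outside gene ends, and -1.851 to -0.882, -0.278 to 0.347 and 0.535 to 1.812 for the 3 length classes. For Ri-treated against aged these were -0.567 to 0.798, -0.188 to 0.063, -0.529 to -0.005, -0.045 to 0.278 and -0.182 to 0.361, and against young 2.113 to 3.501, -0.604 to -0.248, -2.04 to -1.158, -0.177 to 0.436 and 0.723 to 1.987. With age, the bodies of Gse1 (-0.06 scaled on gene bodies, -0.05 with the block), Pde4d (-0.01 scaled on gene bodies, -0.004 with the gene-end share) and Runx1 (-0.07 with a margin of 5 kb) changed sign. The Baiap2 body did so with Ri (-0.02 without aged 3, -0.01 without Ri 2; range -0.02 to 0.2 leaving out each library). Of 112 called single genes and peaks, 61 lost their call with the gene-end share in the model, 29 with no batch term, 8 with RLE and 1 with DESeq2. The replicate block ended 10 of 120. The numbers did not pair young libraries with the others, and the block there gave 876 higher and 344 lower peaks and 511 and 222 bodies with age. Median peaks of 16.0 counts limit single-peak values. Without batch 3 and without start-holding or Myo3a peaks were alternatives chosen after seeing the data.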
